A study of Vitis vinifera with 2 samples.

Results

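Windows of intermediate CG and CHG methylation were stretches of 1 kb in the grapevine genome that were neither unmethylated nor fully methylated in either context. They were chosen by level: the reads of both libraries were pooled, and a window was a member when 30 to 60% of its CG reads and 15 to 40% of its CHG reads were methylated. Eligible windows held at least 8 CG, 8 CHG and 40 CHH cytosines listed in both libraries, at a mean depth of 8 to 60 reads in each. Of 211787 eligible windows on the 19 chromosomes, 4941 (2.33%) were members. Because the pooled level chose them, the window levels given here are a description, and what was asked is how the single cytosines inside a window made up its level.

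The DNA came from terminal buds of the autotetraploid grapevine that colchicine treatment had produced from 'Jingyanjing' (4X), and of the diploid 'Jingyanjing' itself (2X). Whole-genome bisulfite sequencing was used, in which an unmethylated cytosine is read as thymine and a methylated one remains cytosine. Buds of several vines were pooled per line, and each line gave 1 library, so there were no replicates and every comparison of 4X with 2X compared 2 libraries. The mean depth over all listed cytosines was 11.9 reads in 4X and 12.9 reads in 2X, and 87797533 cytosines of the chromosomes were listed in both.

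Plants methylate cytosines in 3 sequence settings, where H stands for A, C or T. As known chiefly from Arabidopsis, CG methylation is copied to the new strand by the maintenance enzyme MET1, and CHG methylation is kept by the chromomethylase CMT3, which binds nucleosomes carrying methylated histone H3. CHH methylation has to be set anew and depends on small-RNA-directed DNA methylation or on CMT2. Transposons usually carry CG and CHG methylation together, whereas gene bodies can carry CG methylation alone. A level between 0 and 100% in bulk DNA may come from different cytosines of the window, from different molecules, cells or vines, or from the homologous chromosomes of a nucleus. Reads pooled over a window do not separate these, and reads at a single cytosine separate only the first from the rest.

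A window within the CG limits was not usually within the CHG limits as well. Members were 22.2% of the 22244 eligible windows with a CG level of 30 to 60%, and 31.1% of the 15897 with a CHG level of 15 to 40%. They lay on every chromosome, from 1.68% of the eligible windows of chromosome 8 (190 windows) to 3.24% of those of chromosome 16 (295 windows). The median member held 16 CG, 18 CHG and 202 CHH cytosines and had a mean depth of 12.8 reads in 4X and 14.5 reads in 2X. Its CHH level, which the rule did not use, had a pooled median of 1.60%, against 1.31% over all eligible windows. Summed over the members, the CG level was 46.0% in 4X and 45.7% in 2X. The CHG level was 26.3% in 4X and 26.7% in 2X, and the CHH level was 2.26% in 4X and 2.25% in 2X.

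Single CG cytosines of the members were mostly not intermediate. Cytosines covered by 10 reads or more in 4X and in 2X (49093 of 92717 CG, and 54738 of 106894 CHG) were called low at a level of at most 20%, high at a level of at least 80%, and intermediate in between. Among the CG cytosines of 4X, 35.6% were low, 34.0% were high and 30.4% were intermediate. Among those of 2X, 36.8% were low, 32.8% were high and 30.4% were intermediate. Had every cytosine shared the level of its window, counting error alone would have left 93.6% of them intermediate in 4X and 94.6% in 2X. At the 15710 CG cytosines with 20 reads or more in each, the intermediate share was 35.8% in 4X and 35.7% in 2X, somewhat larger, and still below the share of low and high cytosines together. Over pooled reads it was 31.4%, against 18.9% with limits of 33 and 67%, 48.6% with limits of 10 and 90%, and 47.5% in windows of 500 bp. Those shorter windows were chosen by the same levels, but needed only 4 CG and 4 CHG cytosines to be eligible.

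CHG cytosines were split differently, with many low and few high. The rule set lower limits for CHG than for CG, so this difference partly follows from the choice of windows. In 4X 55.3% were low, 10.1% were high and 34.6% were intermediate, where 63.2% would have been intermediate at the levels of their windows. In 2X 54.8% were low, 9.55% were high and 35.7% were intermediate, where 65.6% would have been so. At the 17231 CHG cytosines with 20 reads or more, 41.0% were intermediate in 4X and 42.3% in 2X. Over pooled reads 37.2% were intermediate, against 20.7% with limits of 33 and 67%, 51.9% with limits of 10 and 90%, and 49.2% in windows of 500 bp. Wilson intervals of the CG and CHG shares at 10 reads reached at most 0.43 points from the share. They cover counting error only, because duplicate reads are not independent molecules and neighbouring cytosines share reads. Windows with the same CHG limits but a high CG level had a similar CHG split at 10 reads. Of their CHG cytosines in 4X, 57.1% were low, 33.2% were intermediate and 9.70% were high. In 2X these shares were 55.2% low, 34.7% intermediate and 10.1% high. At 20 reads or more the split was less alike. There 36.4% of the CHG cytosines of these windows were intermediate in 4X and 38.2% in 2X, below the members.

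**Figure D1:**
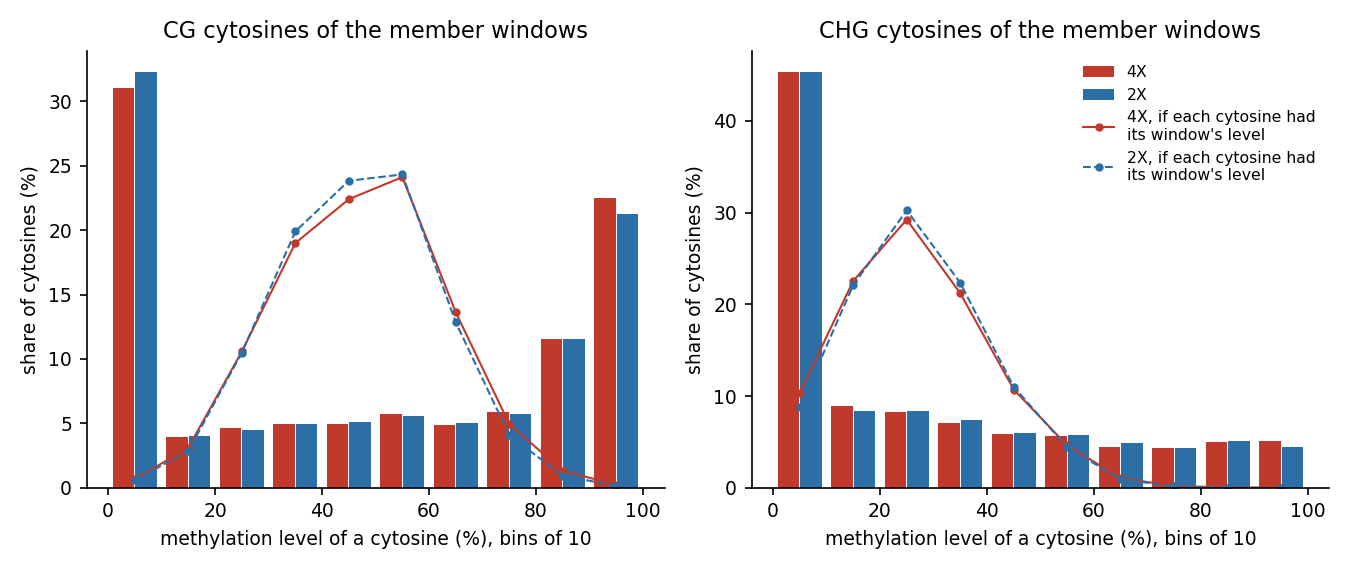
Share of single CG (left) and CHG (right) cytosines of the member windows, in percent, in bins of 10 points of their methylation level, at cytosines with 10 reads or more in each library. Bars show 4X and 2X, and lines show the shares that counting error alone would give if each cytosine had the level of its window; CG levels pile up at both ends and CHG levels at the low end, away from the hump of the lines.

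The same cytosine was low, or high, in both libraries. Of the CG cytosines, 32.7% were low in 4X and in 2X, 28.2% were high in both and 21.9% were intermediate in both. Only 98 (0.20%) were high in 4X and low in 2X, and 12 were low in 4X and high in 2X. Of the CHG cytosines, 49.3% were low in both, 26.2% were intermediate in both and 6.46% were high in both, while 51 were high in 4X and low in 2X and 13 were low in 4X and high in 2X. Both libraries thus showed the low and the high levels at the same positions.

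An index that counting error does not inflate put a number on this split. It is the covariance of the 4X and 2X levels over the cytosines of a window, divided by p(1−p) with p the mean level, and is 0 when all cytosines have the level of their window and 1 when each is wholly methylated or wholly unmethylated. In the members the index was 0.546 for CG (0.490 to 0.632 over the 19 chromosomes) and 0.442 for CHG (0.376 to 0.520). Computed within each library after subtracting the counting variance, the CG index was 0.567 in 4X and 0.569 in 2X, and the CHG index was 0.464 in 4X and 0.458 in 2X. Windows with the same CG level but a CHG level under 5% (CG-only windows, 11033) had a CG index of 0.584, and the index was higher in the members on 2 of the 19 chromosomes. Windows with the same CHG level but a CG level over 80% (4763) had a CHG index of 0.390 and a CG index of 0.177. Differences between kinds of window are given without a test, because windows of 1 genome are not replicates and their levels chose them.

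Along the DNA, low and high CG cytosines of a member were mostly sorted into separate stretches. An arrangement was assigned from the pooled levels in the 2918 members (59.1%) with at least 8 CG cytosines of at least 10 reads. In 1801 of these (61.7%) under 1 in 3 CG cytosines was intermediate, and such windows are called all-or-none. Most of the all-or-none windows, 1330 (45.6% of those assigned), switched between low and high only once and are called border windows. Another 278 (9.53%) switched 2 times, 174 (5.96%) switched 3 or more times, and 19 had only low or only high cytosines beside the intermediate ones. Uniform windows, with over 2 in 3 CG cytosines intermediate, numbered 401 (13.7%), and the 716 between (24.5%) are called mixed. These shares depended on the limits and on the window length. Uniform windows made up 4.11% and borders 50.9% with limits of 33 and 67%, and uniform windows 25.8% and borders 26.5% with limits of 10 and 90%. In windows of 500 bp the order was turned round, with 34.96% uniform and 32.2% borders. These windows needed only 4 CG and 4 CHG cytosines to be eligible, but still 8 well covered CG cytosines for an arrangement. It was therefore assigned in only 1247 of 5363, so the shares at 500 bp and 1 kb are not from like sets. The members without an arrangement were shallower, with a median depth of 11.1 reads in 4X and 12.5 reads in 2X, against 13.8 and 15.7 reads in border windows.

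Borders and uniform windows took larger shares of the assigned members than of the assigned CG-only windows. An arrangement was assigned in 59.1% of the members but in only 41.7% of the CG-only windows. The median CG-only window held 14 CG cytosines at a depth of 11.8 reads in 4X and 12.7 reads in 2X. In the members these medians were 16, 12.8 and 14.5. Of 4596 CG-only windows with an assigned arrangement, 37.5% were borders, 12.6% had 3 or more switches, 32.5% were mixed and 7.16% were uniform. The border share was higher in the members on 18 of the 19 chromosomes and the uniform share on 15. At short distances CG cytosines of the members shared a state more often. Pairs of low or high CG cytosines 2 to 49 bp apart were in the same state in 95.5% of cases in the members and in 88.9% in CG-only windows, and pairs 100 to 199 bp apart in 73.9% in the members and in 65.1% in CG-only windows. At 400 to 599 bp the order was turned round, with 14.0% in the members and 24.1% in CG-only windows. Pairs were counted inside windows chosen for an intermediate CG level. In a border window, distant cytosines tend to lie on opposite sides of the switch. The low shares at long distances are thus partly set by the choice of windows and by the share of borders. They do not measure how far a state extends along the DNA.

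**Figure D2:**
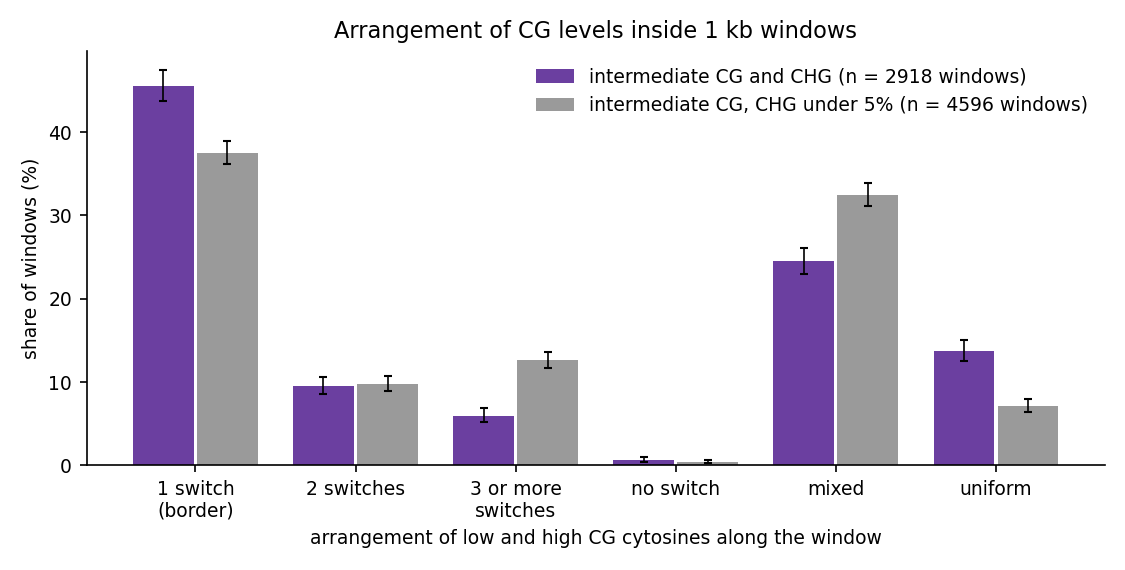
Share of windows, in percent, by the arrangement of their low and high CG cytosines, for the 2918 member windows and the 4596 CG-only windows that could be assigned one. The border, with 1 switch, is the most frequent arrangement in both at this window length and these limits (in windows of 500 bp uniform ones outnumbered borders), and the uniform bar is taller in the members.

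Windows assigned an arrangement from the pooled levels mostly kept it in each library taken by itself. The pooled levels hold the reads of both libraries, so part of this agreement is built in. Windows with an arrangement in a single library but not in the pooled levels were not counted. Of the 1330 border windows, 1196 were borders by the 4X levels alone and 1235 by the 2X levels alone, and 1122 (84.4%) were borders in both. Of the 174 windows with 3 or more switches, 143 (82.2%) were so in both. Uniform windows held less often, with 307 of 401 uniform in 4X, 301 in 2X and 236 (58.9%) in both. Of the others, 11 were all-or-none in at least 1 library, and 1 was all-or-none in both.

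In border windows a methylated stretch began or ended. The gap between the last low and the first high CG cytosine that was called had a median of 231.5 bp (quartiles 145 and 353 bp). The high side lay to the left in 649 windows and to the right in 681. By construction the CG level was 86.0% in 4X and 85.5% in 2X on the high side, and 6.30% in 4X and 5.33% in 2X on the low side. CG cytosines of fewer than 10 reads in at least 1 library, which had no part in placing the border, had a level of 80.9% in 4X and 80.9% in 2X on the high side (4514 cytosines). On the low side they had 5.95% in 4X and 6.18% in 2X (7704 cytosines). The less covered cytosines thus had a high and a low side as well. This is a description, because they counted in the window level that the rule used, and neighbouring cytosines share reads.

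CHG and CHH levels changed at the CG border as well. The CHG level was 57.1% in 4X and 56.8% in 2X on the high side, and 4.07% in 4X and 4.20% in 2X on the low side. It was higher on the high side in 1194 of 1209 windows in 4X and in 1199 in 2X. The CHH level was 4.51% in 4X and 4.28% in 2X on the high side, against 0.635% in 4X and 0.694% in 2X on the low side, and was higher on the high side in 1261 of 1329 windows in 4X and in 1249 in 2X. The median CHH level of a window was lower than these sums, with 2.72% in 4X and 2.67% in 2X on the high side. On the low side it was 0.276% in 4X and 0.290% in 2X. The CG and CHG level of a border window was thus mostly an average of 2 stretches. The high side was methylated in CG and CHG, the low side had little methylation in any context, and the CHH medians were low on both.

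On average the levels fell off within 1 kb of the border. CG levels around the border reached 88.0% in 4X and 87.5% in 2X at 100 to 200 bp inside the high side, and were 54.3% in 4X and 54.95% in 2X at 900 to 1000 bp. CHG levels were 62.0% in 4X and 61.4% in 2X at 100 to 200 bp, and 35.6% in 4X and 35.8% in 2X at 900 to 1000 bp. CHH levels were highest just inside the border, with 5.84% in 4X and 5.45% in 2X at 100 to 200 bp, and were 2.25% in 4X and 2.36% in 2X at 900 to 1000 bp. Outside the border, at 300 to 400 bp, CHH levels were 0.329% in 4X and 0.396% in 2X. For CG the levels close to the border follow from how it was placed, whereas CHH took no part in that. A border lies inside its 1 kb window, so bins farther from it lie increasingly outside that window, where the rule required no level. The fall of CG and CHG levels with distance is thus partly set by the choice of windows. It does not measure how long the methylated stretches were.

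**Figure D3:**
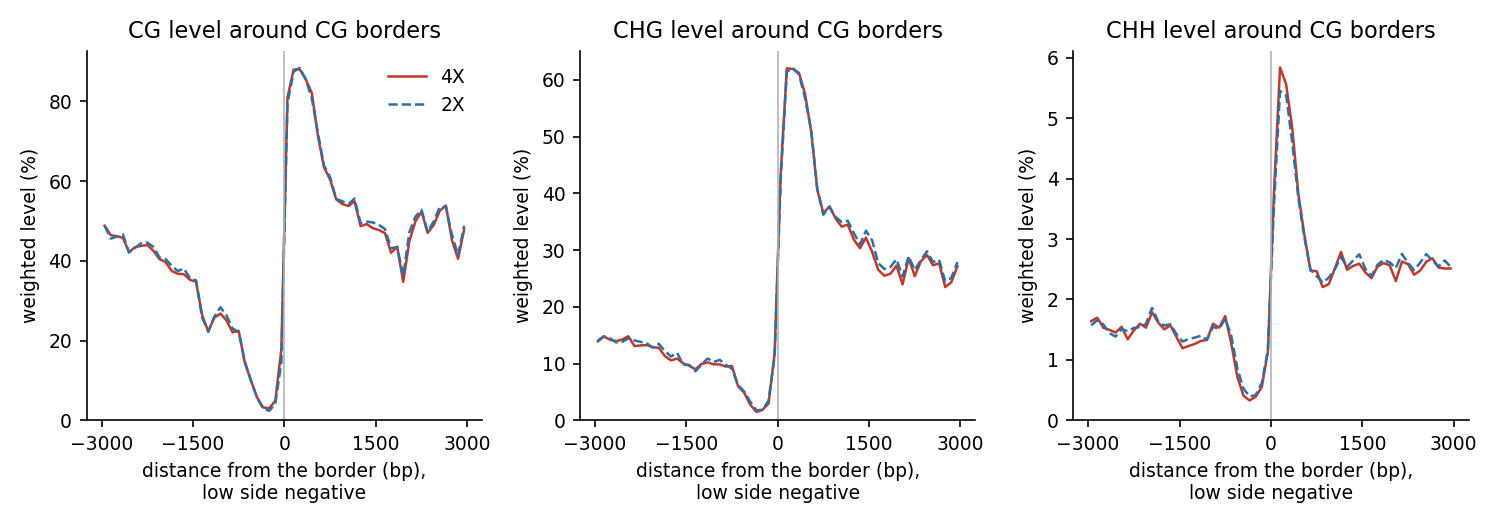
Weighted CG, CHG and CHH level (percent of reads methylated) in bins of 100 bp against the distance from the border in bp, over the 1330 border windows and up to 3000 bp on each side, with the high side to the right. The curves of 4X and 2X lie close together, and the CHH level peaks at 5.84% in 4X and 5.45% in 2X just inside the border.

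Neighbouring windows, which took no part in the choice, were also more methylated on the high side than on the low side. In 580 border windows both adjoining windows were eligible. The pooled CG level had a median of 65.4% in the window beyond the high side and of 11.0% in the window beyond the low side, and was higher beyond the high side in 461 of 580 (79.5%). The pooled CHG level had a median of 40.1% beyond the high side and of 0.675% beyond the low side, and was higher beyond the high side in 459. At 3 windows from the border, the CG median was 63.2% on the high side and 51.3% on the low side, and the high side was higher in 280 of 522 (53.6%). For CHG the median at 3 windows was still 19.6% on the high side and 1.94% on the low side, and the high side was higher in 307 of 522 (58.8%). For CHH it was higher in 323 of 522 (61.9%).

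The border window with the most well covered CG cytosines was chr14:30137001-30138000, in the build of the files. Its pooled level was 51.9% for CG and 32.4% for CHG. In the first 500 bp no CG bin of 100 bp exceeded 2.04% in 4X and 1.24% in 2X. In the last 500 bp the bins ran from 90.8 to 96.9% in 4X and from 83.5 to 95.7% in 2X. Of its 47 CG cytosines of at least 10 reads, 19 were low, 26 high and 2 intermediate, so hardly any cytosine had the level of the window. CHG cytosines switched at the same place: their bins had 0% in 4X and at most 0.709% in 2X in the first 500 bp, and 64.5% in 4X and 62.6% in 2X in the next 100 bp.

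In the window with the most such cytosines among those with 3 or more switches, chr13:2934001-2935000, the pooled level was 46.4% for CG and 24.5% for CHG. Of its 37 CG cytosines, 22 were low, 13 high and 2 intermediate. The first 300 bp were unmethylated at CG in both libraries, and the bin from 701 to 800 bp had 91.3% in 4X and 89.9% in 2X. Between them the bin from 501 to 600 bp held low and high cytosines side by side and averaged 41.3% in 4X and 44.1% in 2X. The CHG level of this window was 28.97% in 4X and 20.4% in 2X (Fisher's exact test of the reads, adjusted p = 0.0400), under the 20 points needed for a call.

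The uniform window chosen in the same way, chr18:9821001-9822000, looked quite different. It had a pooled level of 39.5% for CG and 36.0% for CHG, and 53 of its 55 CG cytosines were intermediate. The middle 50% of these cytosines spanned 32.5 to 46.1% in 4X and 32.5 to 44.1% in 2X. Of its 36 CHG cytosines 28 were intermediate in 4X and 27 in 2X. Its depth of 37.8 reads in 4X and 40.1 reads in 2X was well above the median of uniform windows, 14.6 reads in 4X and 15.8 reads in 2X. Reads of near-identical copies placed at 1 position were not told apart from reads of a single copy here.

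**Figure D4:**
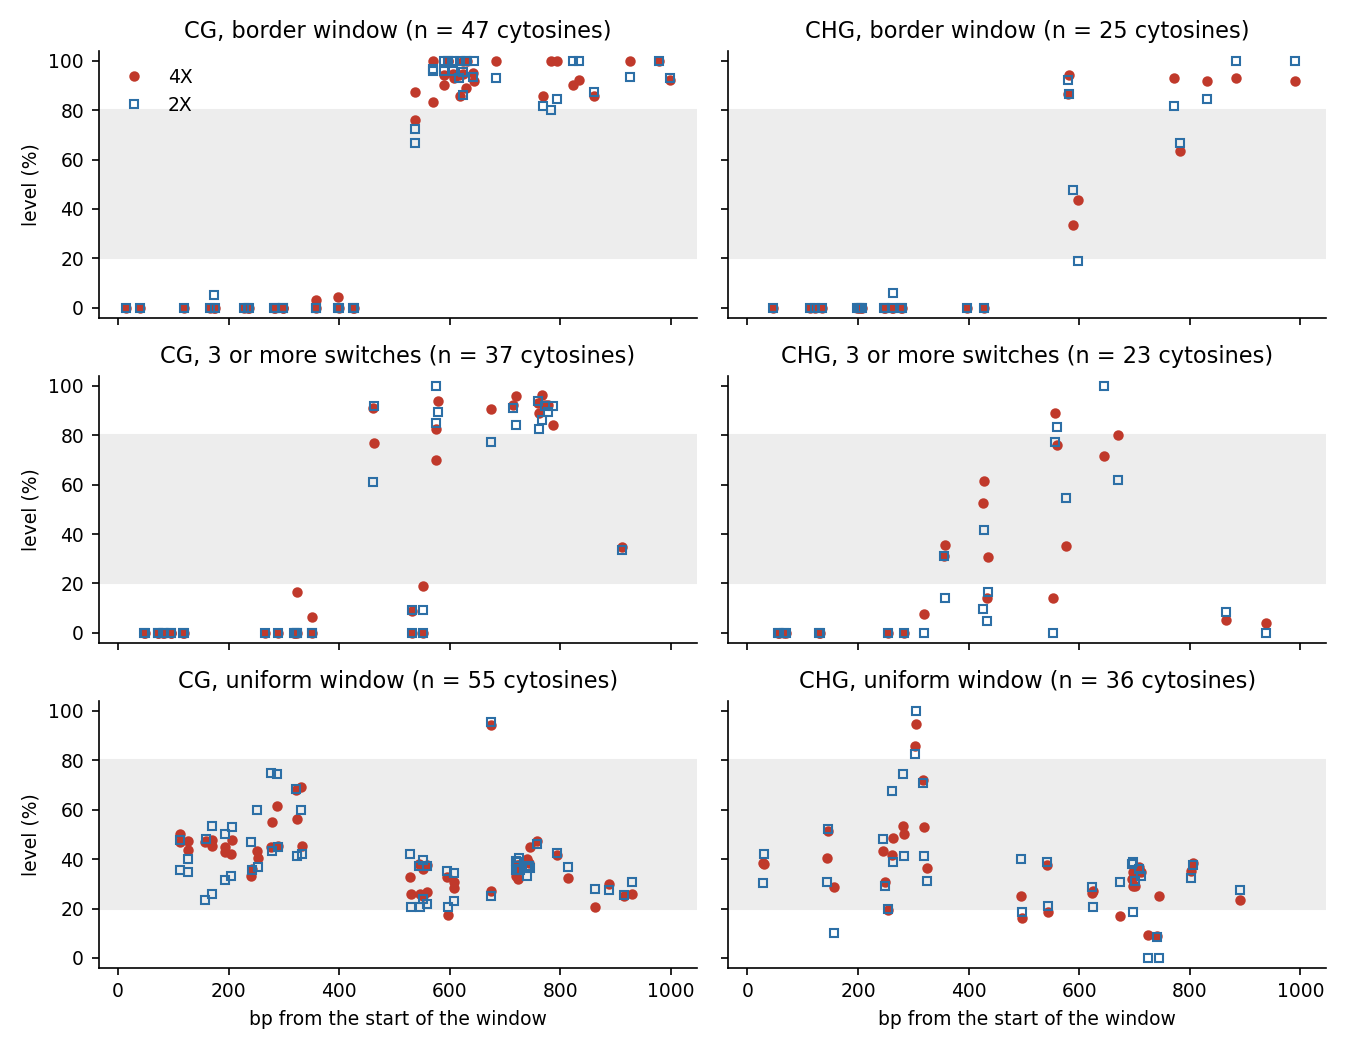
Methylation level (percent) of single CG cytosines (left) and CHG cytosines (right) of 10 reads or more in each library, against the distance in bp from the start of the window, in the border window (top), the window with 3 or more switches (middle) and the uniform window (bottom). Filled circles are 4X, open squares are 2X and the grey band marks intermediate levels; in the border window 2 of 47 pooled CG cytosines are intermediate, in the uniform window 53 of 55.

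In uniform windows CG and CHG cytosines were intermediate together. Of their CG cytosines 84.3% were intermediate, which the definition sets, and of their CHG cytosines, which it did not use, 66.8% were intermediate. In border windows 22.7% of the CHG cytosines were intermediate. The pooled CHG level was also higher in uniform windows, with a median of 30.5% against 24.7% in border windows. A higher level can by itself put more CHG cytosines above the limit of 20%. These classes were taken from pooled reads, so a cytosine that differed between the libraries could count as intermediate. The CHG index was 0.170 in uniform windows and 0.584 in border windows, beside a CG index of 0.129 in uniform windows and of 0.726 in border windows. Uniform windows held more CHG cytosines, with a median of 28 against 19 in border windows, at a similar number of CG cytosines (20 and 21).

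Their surroundings differed as well. Of 512 eligible windows next to a uniform window, 18.8% were members, against 6.57% of the 1735 next to a border window and 2.33% of all eligible windows. These neighbours of uniform windows had a median CG level of 54.3% and a median CHG level of 35.2%, against 33.8% and 9.15% next to border windows. Low windows (CG and CHG under 10%) made up 7.81% of the neighbours of uniform windows and 32.0% of the neighbours of border windows. Over the surrounding 100 kb the median CHG level was 38.9% around uniform windows, 21.4% around border windows and 25.8% around all eligible windows. Uniform windows thus lay in more methylated surroundings than border windows did. Members seldom formed longer runs: they fell into 4697 runs, 4466 of them a single window. The longest run was 3 windows (chr1:4405001-4408000), of which the arrangements were border, border and 2 switches. Of 394599 windows holding a cytosine listed in both libraries 211787 were eligible, and a window that was not eligible ended a run too.

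The strands of a CG site were seldom in opposite states. Adjoining CG cytosines were taken as the strands of a site. Among 11313 CG sites with 10 reads or more on each strand in each library, both cytosines were low in 24.2%, both intermediate in 26.0% and both high in 36.5%. At 1455 sites (12.9%) an intermediate cytosine faced a low or a high one. A low cytosine faced a high one at 39 sites (0.345%), in 23 windows. In CG-only windows there was 1 such site among 12612. In uniform windows both cytosines were intermediate at 79.7% of 1276 sites, a share that their definition largely sets. The largest number of low-with-high sites in a window was 5, at chr11:5195001-5196000. There the first strand had a median of 94.4% in 4X and 93.5% in 2X at these sites, and the other strand 6.11% in 4X and 4.76% in 2X. Depth there was 29.8 reads in 4X and 34.2 reads in 2X, above the member medians. Reads of near-identical copies were not told apart from reads of a single copy. In chr10:9023001-9024000 (4 sites, 57.1 reads in 4X and 57.7 reads in 2X) the medians did not split by strand. The first strand had 47.2% in 4X and 50.3% in 2X, the other 58.5% in 4X and 47.5% in 2X. Strand medians were far apart in chr1:10902001-10903000 and chr2:15972001-15973000, also with 4 sites each. Of the 39 sites, 28 lay in 14 windows with 3 or more switches, where such a site by itself adds switches.

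Cut into bins of 100 bp, the members showed which levels of CG and CHG went together. Of 16520 bins with at least 2 CG and 2 CHG cytosines, 41.7% had a low CG level, 33.4% an intermediate one and 24.99% a high one. In low bins the median CHG level was 0% in 4X and 0% in 2X, in intermediate bins 30.4% in 4X and 30.2% in 2X, and in high bins 64.7% in 4X and 64.3% in 2X. The median CHG level was thus higher in bins with a higher CG level, although some bins carried CG methylation with little CHG methylation. The CHG level was under 20% in 412 of 4128 high bins (9.98%) and in 1685 of 5510 intermediate bins (30.6%). In 352 of 6882 low bins (5.11%) it was over 20%. CHH medians followed the same order, with 0% in 4X and 0% in 2X in low bins, 1.48% in 4X and 1.54% in 2X in intermediate bins, and 3.03% in 4X and 2.99% in 2X in high bins.

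Between 4X and 2X the members differed little on average. Over all their reads, the 4X minus 2X difference was 0.37 points for CG (95% interval of the counting error ± 0.118), -0.46 points for CHG (± 0.0981) and 0.013 points for CHH (± 0.0109). As a mean of cytosine levels, which does not weight cytosines by their reads, it was 0.90 points for CG and -0.051 points for CHG. At cytosines of at least 10 reads it was 0.58 points for CG. CG was higher in 4X in 2556 windows and lower in 2382. CHG was higher in 4X in 2360 and lower in 2577. Over all eligible windows the differences were -0.027 points for CG and -0.51 points for CHG. The rule pooled the libraries, and in 3119 members (63.1%) each library was within the limits by itself. In 752 only 4X was, in 924 only 2X was, and in 146 neither was.

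Windows were called different at an adjusted p under 0.05 in Fisher's exact test of their summed reads, adjusted by Benjamini-Hochberg over all eligible windows, with a difference of at least 20 points. For CG 132 members were called, 93 higher and 39 lower in 4X. Of all eligible windows 0.345% were called for CG, 0.228% higher and 0.117% lower in 4X. For CHG 76 members were called, 53 higher and 23 lower in 4X. Of all eligible windows 0.349% were called for CHG, 0.218% higher and 0.131% lower in 4X. No member was called for CHH by the same Fisher's exact test, against 0.00567% of all eligible windows. Most members could hardly have been called, since the third quartile of their pooled CHH level was 2.69%, far under the 20 points required. Whatever the difference, 960 of 4941 members and 26887 of 211787 eligible windows had an adjusted p under 0.05 for CHH in that test. The CG and CHG counts of members are a description, since a pooled intermediate level lets libraries lie farther apart than a pooled level near 0 or 100% does. Reads of neighbouring cytosines come from the same molecules, so these p-values are too small even for a comparison of libraries. With a difference of at least 10 points, 432 members (and 1.99% of all eligible windows) were called for CHG, and 47.2% of these members were higher in 4X, so the direction of most CHG calls depended on the size of difference required.

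Where a member was called in both contexts, CG and CHG went the same way. Of the 132 members called for CG and the 76 called for CHG, 25 were called in both. In all 25 the direction was the same, with 20 higher and 5 lower in 4X. The same held for all 84 eligible windows called in both (0.0397%), 67 higher and 17 lower in 4X, so the shared direction was not particular to the members. By arrangement, beside the 0.345% of all eligible windows, CG calls were made in 11 of 1330 border windows, 23 of 716 mixed windows, 21 of 401 uniform windows and 73 of the 2023 windows without an arrangement. A uniform pooled level can itself come from libraries that differ. The SD of the window differences in CG was 10.4 points in uniform windows and 7.40 points in border windows, at a median counting error of 3.87 points in each.

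**Figure D5:**
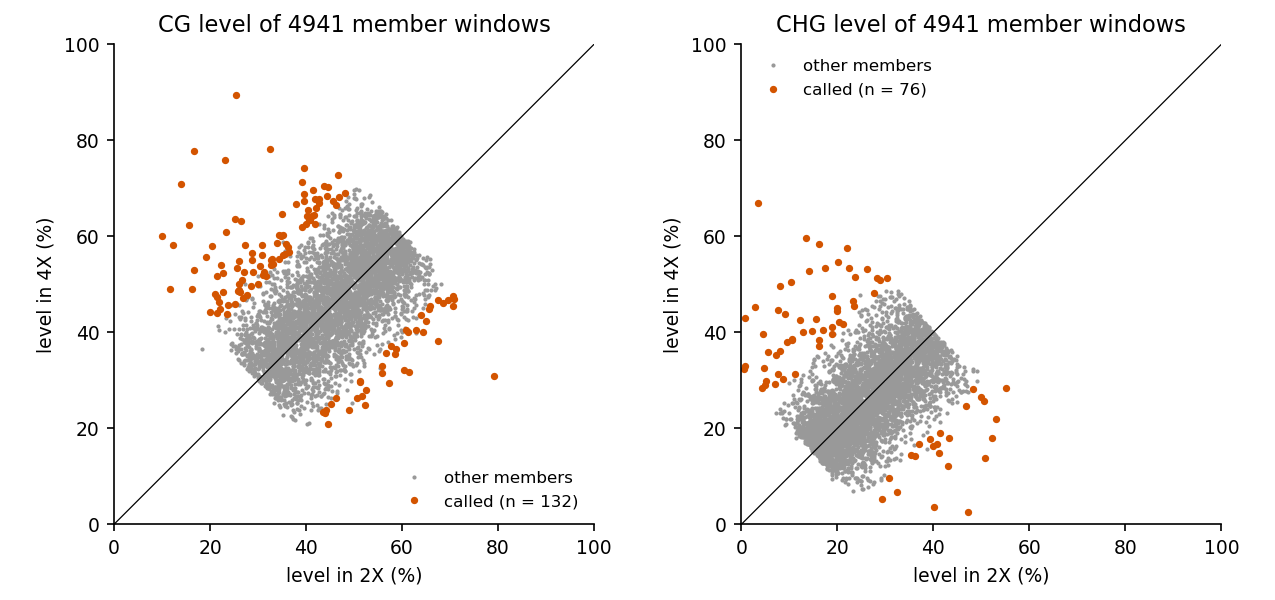
Level of the 4941 member windows in 4X (vertical) against 2X (horizontal), in percent, for CG (left) and CHG (right), with the windows called different in orange. Most windows lie near the diagonal, and the 132 CG and 76 CHG windows called lie at least 20 points from it.

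The largest CG difference with 4X higher was at chr3:2201001-2202000, where 89.5% of 266 CG reads were methylated in 4X and 25.5% of 326 in 2X (adjusted p = 2.88e-54, Fisher's exact test). CHG was also higher there, with 53.3% in 4X and 22.3% in 2X (adjusted p = 3.85e-11, Fisher's exact test). Its CHH level was 2.94% in 4X and 2.05% in 2X. By pooled levels this window counted as uniform, with 8 of 10 CG cytosines intermediate, although in 4X it was highly methylated.

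The largest CG difference with 4X lower was at chr4:6356001-6357000, where 30.9% of 94 CG reads were methylated in 4X and 79.1% of 110 in 2X (adjusted p = 5.09e-09, Fisher's exact test). CHG was 2.56% in 4X and 47.3% in 2X (adjusted p = 2.68e-14, Fisher's exact test). CHH was 0.0683% in 4X and 1.12% in 2X. It held 8 CG and 8 CHG cytosines, the fewest the rule allows, and too few well covered ones for an arrangement. In both of these windows, neither library was within the limits of the rule by itself.

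Windows at the limits of the rule are described by their levels. The member nearest the lower CG limit had a pooled CG level of 30% (33.3% in 4X, 27.0% in 2X) and the nearest window outside had 29.98% (24.5% in 4X, 36.7% in 2X). At the upper CG limit these levels were 60% (64.6% in 4X, 55.6% in 2X) and 60.03% (61.1% in 4X, 59.1% in 2X). At the lower CHG limit the pooled CHG levels were 15% (11.4% in 4X, 17.8% in 2X) and 14.99% (13.5% in 4X, 16.2% in 2X). At the upper CHG limit they were 40% (43.4% in 4X, 37.2% in 2X) and 40.02% (36.8% in 4X, 42.6% in 2X). Whether any of the named windows lies in a gene was not analysed here, because no annotation in the build of the files was used.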

How the data were processed

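Levels were computed from the files of 2 libraries, 4X and 2X, grouped by the ploidy in their labels. By the study's methods, the authors filtered reads by quality and aligned the read pairs to a grape genome with software spelled Bimark. Not given in the sources used here: its version, the build, the conversion rate and whether duplicates were removed. The deposited methylation level is a percent and equalled methylated over all reads in every line. The authors' read counts per cytosine, methylated and unmethylated, were not normalized and were deposited at cytosines with at least 3 reads. The header names 5 fields for 7 columns.

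Reads of cytosines listed in both files were summed over windows of 1000 bp starting at position 1. The members, the comparison windows, the limits and the tests were chosen with earlier results of these data known. Windows were named by a rule: for the border, 3 or more switches and uniform arrangements, the window with the most CG cytosines of at least 10 reads, among those with each library within the limits and at least 8 such CG and 8 such CHG; the called window with the largest CG difference in each direction; and the windows nearest each limit. Shares have Wilson intervals at 95%. Fisher's exact test was two-sided, with Benjamini-Hochberg adjustment, and the scripts were tested on simulated data. Alternatives changed the read minimum, depth, limits, window length and summary of levels. No genome or annotation of the build was used, so sequences and genes are not reported here. Scripts ran under Python 3.11.15 with scipy 1.17.1, numpy 2.4.6, numba 0.67.0, pandas 2.3.3, pyarrow 21.0.0 and matplotlib 3.10.9.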

Additional observations from a re-analysis of the deposited data

How the results depend on the processing

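With each library by itself within the limits, 3119 windows were members instead of 4941. The pooled share of intermediate CG cytosines, 31.4%, was 30.3% at a depth of at most 20 reads, 32.1% in a narrower band (CG 35 to 55%, CHG 20 to 35%), 30.1% with each library within the limits, 29.1% at 5 reads per cytosine and 33.8% at 15 reads. It was 47.5% in windows of 500 bp, 48.6% with limits of 10 and 90%, and 18.9% with limits of 33 and 67%. The share of intermediate CHG cytosines, 37.2%, was in the same order 36.3%, 38.0%, 36.3%, 34.0%, 40.5%, 49.2%, 51.9% and 20.7%. The CG index of 0.546 was 0.463 in windows of 500 bp and 0.501 at 15 reads, and the CHG index of 0.442 was 0.332 in windows of 500 bp. Borders, 45.6% of the windows with an arrangement, made up 32.2% in windows of 500 bp, 43.6% at 5 reads, 26.5% with limits of 10 and 90%, and 50.9% with limits of 33 and 67%. Uniform windows, 13.7%, made up 34.96%, 11.8%, 25.8% and 4.11% under those settings and 16.4% at 15 reads. In windows of 500 bp, uniform windows were thus more frequent than borders. Such windows are another set of members, an arrangement was assigned in only 1247 of 5363 of them, and the cause was not tested. The CG difference of 0.37 points was 0.90 as a mean of cytosine levels and 0.58 at cytosines of at least 10 reads; the CHG difference of -0.46 points was -0.051 and -0.31 in these, and -0.58 at a depth of at most 20 reads. With a difference of at least 10 points, 419 members were called for CG (58.9% higher in 4X, against 70.5%), where 1.59% of all eligible windows were called, and 432 for CHG (47.2% higher in 4X, against 69.7%), where 1.99% were called. As a mean of cytosine levels, 72 were called for CG, where 0.189% of all eligible windows were called. At cytosines of at least 10 reads, 57.7% of the CHG calls were higher in 4X. The summed CG and CHG differences kept their sign under these alternatives, but most CHG calls were lower in 4X at 10 points and higher in 4X at 20 points. No paired analysis was possible because 4X and 2X had a single library apiece. Depth limits the classes of single cytosines: at 10 reads, a level near 20 or 80% falls on either side by counting error.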
